A study of Mus musculus with 24 samples.

Results

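The cell cycle inhibitor genes described here are the 6 members Cdkn1a, Cdkn1b, Cdkn2a, Cdkn2b, Cdkn2c and Cdkn2d, of 37310 genes in the annotation used, and they were taken by name. Together they have 11 distinct annotated transcript starts, of 67194 starts of autosomal protein-coding genes. ChIP-seq for H3, for H3K4me3 and for H3K27me3 was run on 4 populations of sorted cells from mouse embryonic gonads, with 2 replicates of each antibody and population (24 samples). XY and XX progenitor cells came from E10.5 male and female SF1-eGFP embryos, Sertoli cells from E13.5 male Sox9-CFP embryos, and pregranulosa cells (labelled granulosa cells) from E13.5 female TESM-CFP embryos, all on a C57BL/6 x CD1 background. No mutation was compared, every population carried a fluorescent transgene that served as the gate of the sort, and each replicate held cells pooled from many embryos.

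The deposited data are 8 lists of peaks, 4 for H3K4me3 and 4 for H3K27me3, and each list pools both replicates of its population. The lists give the places of enrichment over H3 and no level of it. Without a spread between replicates no test compares the populations, and every difference given here is a difference between 2 pooled lists. Tags behind a list numbered 10162534 (XY progenitor), 49254553 (XX progenitor) and 31104760 (Sertoli) for H3K4me3, and 6470151, 33185400 and 44446456 for H3K27me3 in the same order, so that of these 3 populations XY progenitor cells had the fewest tags. The depth and the calling thresholds of the pregranulosa lists are not given in the sources used here, so a difference between pregranulosa cells and another population cannot be told apart from a difference in calling. At E13.5 the sorted cells carried the marks of their labels. H3K27me3 lay within 2 kb of the start of 0 of 5 Sertoli marker genes in Sertoli cells and of 4 in pregranulosa cells. The 5 pregranulosa markers had it at 5 starts in Sertoli cells and at 2 in pregranulosa cells. The 5 early gonad markers did not set the progenitor cells apart in this way. They had H3K4me3 in every list, and H3K27me3 at 5 starts in both progenitor lists, 2 in Sertoli cells and 0 in pregranulosa cells. Ddx4 (germ cells), Pecam1 and Tie1 (endothelium) and Ptprc (blood) had 0 bp of H3K4me3 in all 4 lists. Other markers of these cell types did have it: Dazl (germ cells), Kdr (endothelium), Tal1 (blood) and Star (steroidogenic cells) in all 4 lists, with lowest values of 1256, 2051, 1575 and 1001 bp. Pou5f1 had 1001 bp in Sertoli cells, and Cdh5 and Gata1 had 1001 and 943 bp in pregranulosa cells. Of the other steroidogenic markers, Cyp11a1 had 1001 bp in XX progenitor cells and 0 bp elsewhere. Hsd3b1 had 0, 144, 1133 and 811 bp in XY progenitor, XX progenitor, Sertoli and pregranulosa cells.

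Progression from G1 into S phase is driven by cyclin-dependent kinases, and the 6 genes encode proteins that hold these kinases back. The INK4 proteins, p16 and p15 (from Cdkn2a and Cdkn2b), p18 (Cdkn2c) and p19 (Cdkn2d), bind the CDK4 and CDK6 kinases and keep cyclin D from activating them. Cdkn2a also encodes ARF, an unrelated protein read in another frame from an alternative first exon, which inhibits MDM2 and so stabilizes p53. The CIP/KIP proteins p21 (Cdkn1a), a classical p53 target, and p27 (Cdkn1b) bind cyclin-CDK2 complexes. H3K4me3 is deposited at active and poised starts by Trithorax-group complexes, H3K27me3 is deposited by Polycomb repressive complex 2 and read by CBX proteins, and starts with both marks are called bivalent. The locus of Cdkn2a and Cdkn2b is among the best known targets of Polycomb repression in mouse cells.

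The bases just before 4 of the starts are printed because the results on the locus and on Cdkn1b concern these starts. No call was drawn from the sequence. The first 3 belong to the Cdkn2a-Cdkn2b locus, where H3K27me3 lay over all of them in every list and H3K4me3 lay over the p16 start in 2 lists only, and the last is that of Cdkn1b, the member with H3K27me3 in 1 population only. Each run holds the 200 bases before the start, 5′ to 3′ on the transcribed strand, from the mm9 (NCBIM37) sequence, with every CG dinucleotide in capitals. They are, in order, chr4:88940558-88940757, chr4:88928097-88928296 and chr4:88956942-88957141 (all minus strand) and chr6:134870219-134870418 (plus strand).
Cdkn2a-002, the ARF start: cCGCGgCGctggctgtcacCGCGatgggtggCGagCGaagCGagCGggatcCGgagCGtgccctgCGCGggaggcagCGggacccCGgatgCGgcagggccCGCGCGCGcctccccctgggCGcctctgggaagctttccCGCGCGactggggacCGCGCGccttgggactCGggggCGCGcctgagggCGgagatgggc
Cdkn2a-001, the p16 start: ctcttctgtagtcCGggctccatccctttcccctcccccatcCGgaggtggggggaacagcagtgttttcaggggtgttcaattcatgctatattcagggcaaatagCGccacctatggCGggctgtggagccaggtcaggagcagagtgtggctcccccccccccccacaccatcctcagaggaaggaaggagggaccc
Cdkn2b-201: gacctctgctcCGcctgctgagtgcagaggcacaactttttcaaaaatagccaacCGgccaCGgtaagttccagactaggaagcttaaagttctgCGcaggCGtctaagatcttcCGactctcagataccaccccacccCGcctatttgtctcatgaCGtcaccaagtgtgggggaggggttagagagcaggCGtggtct
Cdkn1b-001: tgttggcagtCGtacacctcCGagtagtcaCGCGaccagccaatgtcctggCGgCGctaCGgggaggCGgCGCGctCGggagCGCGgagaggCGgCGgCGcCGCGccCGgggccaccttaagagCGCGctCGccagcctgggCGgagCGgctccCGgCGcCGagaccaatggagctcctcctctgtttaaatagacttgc
CG reads the same on both strands, no other motif was searched, and 90.5% of 21418 autosomal protein-coding genes hold at least 1 CG in the 200 bases before their most upstream start (median 7). The ARF run held 31 CG, a count reached by 2.73% of those genes, and the Cdkn1b run 27 (5.52%). By contrast the p16 run, 12461 bases further along the same gene, held 4 (65.7%) and the Cdkn2b run 9 (46.4%). Of the runs not printed, those before Cdkn1a-001 and Cdkn2d-201 held 17 (22.2%) and 14 (30.7%), and those before Cdkn2c-001 and Cdkn2c-002 held 4 (65.7%) and 6 (56.6%). The second ARF start, Cdkn2a-201, had 30 (3.32%), most of them shared with the first, and Cdkn1a-003 and Cdkn1a-002 had 2 (80.2%) and 6 (56.6%).

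H3K27me3 lay near most starts of the inhibitor genes in every population. A start was counted as marked when at least 1 bp of the window from 2 kb before to 2 kb after it (4001 bp) was covered by a called region. H3K27me3 marked 9, 10, 9 and 8 of the 11 starts in XY progenitor, XX progenitor, Sertoli and pregranulosa cells, and it marked 19.5%, 19.1%, 20.4% and 18.3% of all starts of autosomal protein-coding genes. The 11 starts are not independent, because Cdkn1a and Cdkn2a have 3 each and Cdkn2c 2, and the 2 ARF starts lie 34 bases apart. Counted by gene, 4, 5, 4 and 4 of the 6 genes had H3K27me3 at a start. The genes are not all separate cases either, because Cdkn2a and Cdkn2b lay within 1 H3K27me3 region in each list. The share of all genes marked at any of their starts was not computed. At the most upstream start alone, H3K27me3 marked 4, 5, 4 and 4 of the 6 genes. There the shares over 21418 autosomal protein-coding genes were 23.6%, 22.8%, 24.2% and 22.1%. The genes always marked were Cdkn1a, Cdkn2a, Cdkn2b and Cdkn2c, Cdkn1b was marked in XX progenitor cells only, and Cdkn2d in none.

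H3K4me3 marked 10, 8, 10 and 9 of the 11 starts in the same order, where the shares over all starts were 61.4%, 63.8%, 62.9% and 64.2%. All 6 genes had at least 1 start with H3K4me3 in every list. At the most upstream start alone, 5, 5, 6 and 5 genes had it, where 64.8%, 66.7%, 65.5% and 67% of autosomal protein-coding genes did. Both marks were found at 8, 7, 8 and 6 starts, against 16.8%, 17.4%, 15.7% and 15.8% of all starts. The median start of the 11 had 4001 bp of H3K27me3 in each list, the whole window, and the median over all starts was 0 bp. For H3K4me3 the medians of the 11 were 1780, 2551, 2233 and 2236 bp, and those of all starts 1455, 2086, 1775 and 2036 bp. The inhibitor genes thus stood above the background in H3K27me3 and close to it in the extent of H3K4me3, as the bars of marked starts and the plot of bases covered at each start show. In 6 of the 11 starts both marks were present in all 4 lists, a pattern held by 7307 of all starts (10.9%).

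**Figure D1:**
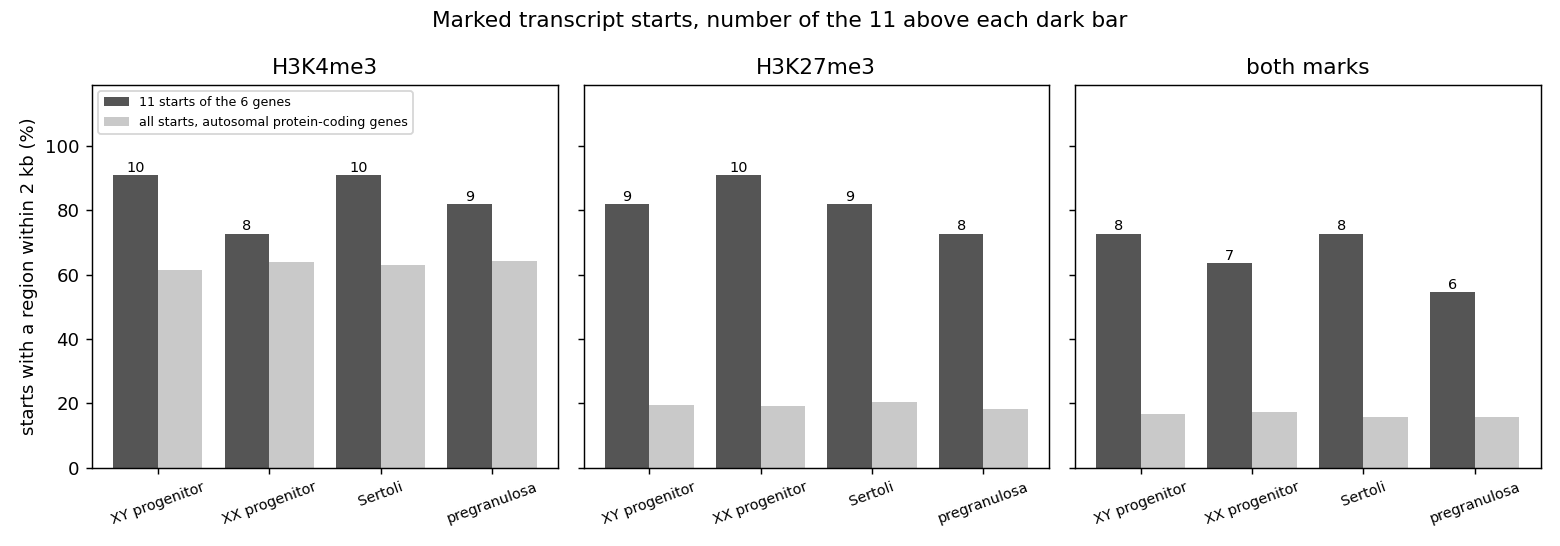
Percentage of transcript starts with a called region within 2 kb (y axis) in each population (x axis), for the 11 starts of the 6 inhibitor genes (dark bars, number of starts above) and for all 67194 starts of autosomal protein-coding genes (light bars). H3K27me3 marked 8 to 10 of the 11 starts, where 18.3% to 20.4% of all starts were marked. Bars have no error because each list pools both replicates.

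**Figure D2:**
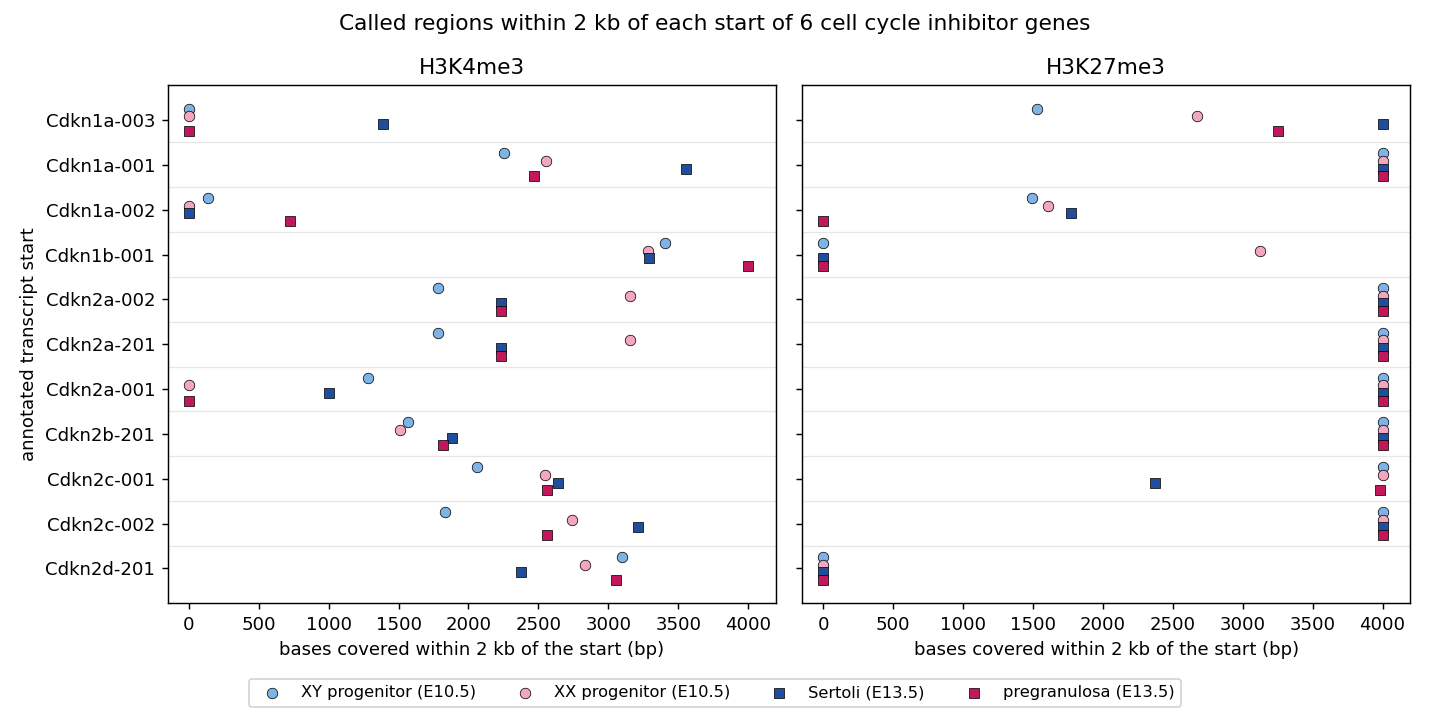
Bases of the 4001-bp window covered by H3K4me3 (left) and H3K27me3 (right) at each of the 11 annotated starts (y axis), 1 point for each pooled list. H3K27me3 filled the window in all 4 lists at the starts of Cdkn2a, Cdkn2b, Cdkn1a-001 and Cdkn2c-002, and was at 0 bp in all 4 at Cdkn2d.

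Cdkn2a and Cdkn2b were covered from end to end by H3K27me3 in all 4 populations. The interval between the outer ends of both genes, chr4:88920377-88956941 (36565 bp), was covered at 36565 bp, or 100%, in each list, and it lay within 1 continuous region each time. That region was chr4:88905961-88962148 (56188 bp) in XY progenitor cells and chr4:88907081-88962641 (55561 bp) in XX progenitor cells. At E13.5 it was chr4:88895320-88963772 (68453 bp) in Sertoli cells and chr4:88896402-88963342 (66941 bp) in pregranulosa cells. Among the autosomal H3K27me3 regions of each list, sorted by width, it was number 59 of 9534, 50 of 7805, 98 of 13105 and 61 of 10939, and so within the widest 1% of each.

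The domain was longer in both E13.5 lists than in both E10.5 lists, and most of the difference lay on the side beyond the 3′ end of Cdkn2a. In the progenitor lists a second region of 6292 bp (XY) and 6258 bp (XX) lay there, over the body of the noncoding transcript Gm12606, and it was set off from the main domain by 1882 and 2927 bp. In both E13.5 lists the corresponding stretch was continuous with the domain, so that part of the added length was already covered at E10.5. Over the locus with 20 kb on each side, H3K27me3 covered 59890 bp in XY progenitor and 63396 bp in Sertoli cells. The values were 59338 bp in XX progenitor and 62966 bp in pregranulosa cells. The part that depth had in these differences was not tested. On the other side, upstream of Cdkn2b, the 4 ends lay within 1624 bp of each other. The pregranulosa list was deposited already joined, by a rule not stated, and the other 3 were joined here where listed windows overlapped. The flanking coding genes were outside the domain. Mtap, a methionine salvage enzyme, 93391 bp away, had 1770 to 2516 bp of H3K4me3 at its start and 0 bp of H3K27me3 in all 4 lists. Dmrta1, 389185 bp beyond Cdkn2b, had neither mark within 2 kb of its start, although 32.6% to 63.8% of its body was covered by H3K27me3.

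H3K4me3 formed islands inside this domain, and the most regular of them lay on the ARF start and on Cdkn2b. At the ARF start (Cdkn2a-002, chr4:88940557) it covered 1780 bp of the window in XY progenitor, 3156 in XX progenitor, 2233 in Sertoli and 2236 in pregranulosa cells. The second upstream start, Cdkn2a-201, had the same values. The E13.5 populations differed by 3 bp here, whereas the XX progenitor list had the widest island. At Cdkn2b-201 (chr4:88956941) H3K4me3 covered 1569, 1509, 1881 and 1821 bp in the same order of populations. The XX progenitor list, with the most tags of the 3 lists of known depth, thus had the widest island at ARF and the narrowest at Cdkn2b. The part that depth had in these widths was not tested. Each island overlapped the first exon, and within the autosomal H3K4me3 regions their width ranked between 16.7% and 58% from the top of the list. Both starts were therefore bivalent in all 4 populations, with islands of ordinary width in a domain of unusual width.

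The p16 start was the point at which lists from XY and XX cells differed. At Cdkn2a-001 (chr4:88928096), H3K4me3 covered 1282 bp of the window in the XY progenitor list and 1001 bp in the Sertoli list, and 0 bp in those of XX progenitor and pregranulosa cells. H3K27me3 covered all 4001 bp in every list. The nearest H3K4me3 lay 7742 bp away in XX progenitor cells and 11795 bp away in pregranulosa cells. Of 67194 starts, 2 had H3K27me3 in all 4 lists with H3K4me3 only in the 2 XY lists, namely this start and 1 of Sftpc, a lung surfactant gene. The mirror pattern, with H3K4me3 only in the 2 XX lists, was held by 115. The XX progenitor H3K4me3 list, without a call here, had 49254553 tags and the XY progenitor list, with one, 10162534. The part that depth had in this difference was not tested.

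These calls at p16 were at the lower limit of what a list can hold. The regions chr4:88927115-88928115 (XY progenitor) and chr4:88927539-88928539 (Sertoli) were each 1001 bp wide, the width of 1 listed window, and both held the start and overlapped exon 1. Peaks no wider than this made up 48.2% of the XY progenitor list and 31.7% of the Sertoli list. Such regions lay within 2 kb of an annotated start in 15.6% (XY progenitor) and 15.2% (Sertoli) of cases, where 71.9% and 57.8% of wider regions did. With regions of 1001 bp or less left out, p16 had H3K4me3 in 0 of 4 lists, while the ARF and Cdkn2b islands stayed in all 4.

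Other H3K4me3 windows of 1001 bp were scattered through the domain. XY progenitor cells had 1 in the intron 14181 bp downstream of the ARF start and 1 between the genes, XX progenitor cells had 1 between the genes, and Sertoli cells had 1 over exon 2 of Cdkn2a and 1 over exon 2 of Cdkn2b. Pregranulosa cells had none. Outside p16 the windows of different lists did not coincide, apart from an overlap of 111 bp between those of the XY and XX progenitor lists. Over the whole locus H3K4me3 covered 5609 bp (15.3%) in XY progenitor, 4899 bp (13.4%) in XX progenitor, 6227 bp (17%) in Sertoli and 3200 bp (8.75%) in pregranulosa cells. Without the regions of 1001 bp or less, the values were 2606, 3898, 3224 and 3200 bp in the same order, so that the XX progenitor list then had the most. A wider H3K4me3 region of 1255 bp was called in XX progenitor cells over the start of Gm12606.

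**Figure D3:**
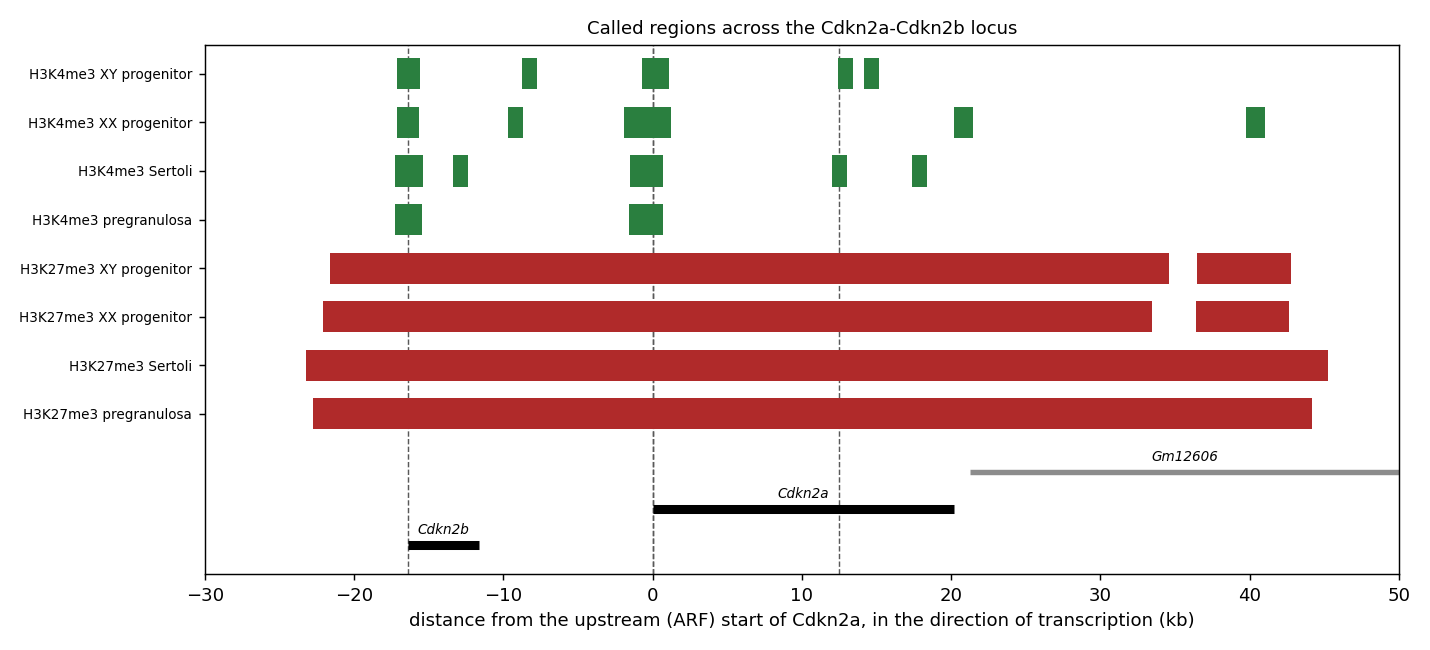
Called regions of H3K4me3 (green) and H3K27me3 (red) in the 4 populations across Cdkn2a and Cdkn2b, by distance in kb from the ARF start along the direction of transcription (x axis). Black bars are the 2 genes, the grey bar is the noncoding Gm12606, and dashed lines mark the annotated starts of Cdkn2b, ARF and p16 from left to right. H3K27me3 spans both genes in every list, and the gap of 1882 and 2927 bp in the progenitor lists is closed at E13.5.

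Cdkn2c was bivalent in all 4 populations, with an H3K27me3 domain that covered the whole gene (6314 bp, 100%) in each. The domain was 20680 bp in XY progenitor, 20726 bp in XX progenitor, 20120 bp in Sertoli and 20999 bp in pregranulosa cells, a span of 879 bp between the narrowest and the widest. Its position differed more than its width. The upstream end lay 4035 bp before the Cdkn2c-001 start in XY progenitor cells, 2334 bp in XX progenitor cells and 1980 bp in pregranulosa cells, but 370 bp in Sertoli cells. The Cdkn2c-001 window (chr4:109339794) held 4001, 4001, 2371 and 3981 bp of H3K27me3 in the order XY progenitor, XX progenitor, Sertoli and pregranulosa.

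H3K4me3 at Cdkn2c extended furthest into the gene in Sertoli cells. It covered 2060, 2544, 2638 and 2563 bp of the Cdkn2c-001 window and 1833, 2742, 3215 and 2564 bp of the Cdkn2c-002 window, whose start lies 1817 bp downstream. The region itself was 2060 bp in XY progenitor, 3102 bp in XX progenitor, 3669 bp in Sertoli and 2943 bp in pregranulosa cells. The XY progenitor list, with the fewest tags of the 3 lists of known depth, had the narrowest. The widest was in the Sertoli list, and not in the XX progenitor list, which had the most tags of the 3. The part that depth had in these widths was not tested. A further H3K4me3 region of 1775 to 3025 bp lay in all 4 lists within the same H3K27me3 domain, over the start of the lincRNA 9630013D21Rik. Faf1, which encodes a FAS-associated factor and lies 9398 bp upstream, had H3K4me3 (1877 to 3054 bp) and 0 bp of H3K27me3 throughout, so that the domain ended between the genes in every list.

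Cdkn2d was the INK4 gene without H3K27me3. Its start (Cdkn2d-201, chr9:21095653) had 3096, 2830, 2375 and 3056 bp of H3K4me3 in XY progenitor, XX progenitor, Sertoli and pregranulosa cells, and 0 bp of H3K27me3 in each. H3K4me3 covered between 73.9% and 88.1% of the gene, which is 2747 bp long. In every list part of this cover came from a separate region, which lay over the start of the neighbouring gene Kri1 and reached into Cdkn2d. The region over the Cdkn2d start itself was 2124, 2555, 2167 and 3056 bp wide in the same order of populations. The nearest H3K27me3 was 16965, 18417, 27901 and 18661 bp away. This pattern, H3K4me3 in all lists and H3K27me3 in none, was also the most frequent kind, held by 25962 of all starts (38.6%). Of its neighbours, Kri1, a ribosome biogenesis factor with its start 3238 bp away, also had H3K4me3 alone (2941 to 3402 bp). Ap1m2, an epithelial clathrin adaptor subunit, had 4001 bp of H3K27me3 in 3 lists and 0 bp in Sertoli cells, where its H3K4me3 was 1757 bp against 1001, 1001 and 1683 bp.

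Cdkn1a was bivalent at its main start in all populations, and its other starts and its upstream flank varied. At Cdkn1a-001 (chr17:29230717), H3K27me3 filled the window in every list and H3K4me3 covered 2254 bp in XY progenitor, 2551 bp in XX progenitor, 3552 bp in Sertoli and 2468 bp in pregranulosa cells. The Sertoli value was the highest, although the H3K4me3 region itself was as wide in pregranulosa cells (3626 bp) as in Sertoli cells (3594 bp) and reached further downstream there. The H3K27me3 region over the gene was 6251, 7512, 10315 and 6261 bp wide in the same order. The pregranulosa region was number 8585 of 10939 by width, and with the widest 75% of regions kept Cdkn1a had no H3K27me3 in that list.

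The upstream start Cdkn1a-003 (chr17:29227924) had H3K27me3 in all 4 lists, at 1531 bp in XY progenitor, 2674 bp in XX progenitor, 4001 bp in Sertoli and 3252 bp in pregranulosa cells. H3K4me3 was present there in Sertoli cells only, at 1391 bp, part of it from a window of 1001 bp that began 161 bp after the start. This pattern was shared by 24 of all starts (0.0357%). The downstream start Cdkn1a-002 (chr17:29235152) lay at the edge of the gene's regions. It had 1493, 1611, 1773 and 0 bp of H3K27me3 and 137, 0, 0 and 724 bp of H3K4me3.

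The H3K27me3 block upstream of Cdkn1a was not called in the pregranulosa list, whose thresholds are unknown. XY progenitor cells had a region of 7778 bp that ended 6892 bp before the Cdkn1a-003 start, XX progenitor cells 1 of 8852 bp that ended 6587 bp before it, and Sertoli cells 1 of 18956 bp that ended 5034 bp before it. The XY progenitor list also held a region of 5001 bp further upstream, set off from that of 7778 bp by 612 bp. In pregranulosa cells no H3K27me3 region other than that of the gene was called within 20 kb of Cdkn1a. H3K4me3 was called over the start of the lincRNA Gm16197, which lies in this block, in all 4 populations, with regions of 1001, 1578, 1535 and 2095 bp. The nearest coding genes carried no H3K27me3 at their starts: Srsf3, a splicing factor, had H3K4me3 alone (2841 to 3617 bp) and Rab44, a Rab GTPase, had neither mark.

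Cdkn1b had H3K4me3 in all populations and H3K27me3 in XX progenitor cells only. At its start (chr6:134870419, shared by both transcripts) H3K4me3 covered 3404 bp in XY progenitor, 3284 bp in XX progenitor, 3288 bp in Sertoli and 4001 bp in pregranulosa cells. H3K27me3 covered 3121 bp in XX progenitor cells and 0 bp in the other 3. The XX progenitor region was chr6:134863926-134871539, 7614 bp joined from 3 listed windows, and a separate window of 5001 bp lay downstream, from 4183 to 9183 bp after the start. In the lists without a call the nearest H3K27me3 was 60309 bp (XY progenitor), 116602 bp (Sertoli) and 92764 bp (pregranulosa) away.

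Few starts shared this behaviour. H3K27me3 in XX progenitor cells and in no other list was found at 358 of all starts (0.533%), and in XY progenitor cells and no other list at 726 (1.08%). The full pattern of Cdkn1b, with H3K4me3 in all lists, was held by 298 (0.443%). The XX progenitor H3K27me3 list had 33185400 tags, the XY progenitor list 6470151 and the Sertoli list 44446456. The part that depth had in the call was not tested. The call stayed in XX progenitor cells under every alternative rule for regions and windows that was tried. None of these rules could have added a call in another list, where the nearest H3K27me3 lay far beyond every window and joining distance used.

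The H3K4me3 region of Cdkn1b was wider in pregranulosa cells than in the other lists. It measured 9055 bp (chr6:134865854-134874908), number 139 of 43367 autosomal regions, or the widest 0.321%. The regions over the start were 3902 bp in XY progenitor, 3918 bp in XX progenitor and 4083 bp in Sertoli cells, within the widest 3.48%, 8.7% and 5.54%. It covered 87.8% of the gene, where the other 3 lists had 48.9%, 51.5% and 54.7%. In the other lists a second region of 2120, 1517 and 2268 bp lay upstream, set off by 1233, 1324 and 1216 bp, and the pregranulosa region, listed as 1 peak, spanned that gap. Over the 10001 bp centred on the start, H3K4me3 covered 9055 bp (90.5%) in pregranulosa cells and 6022, 5435 and 6351 bp in the others. The pregranulosa region also reached 4489 bp past the start, where the others ended 2498 to 2795 bp past it. Another H3K4me3 region, of 3365 to 4522 bp, began 5825 to 6218 bp after the start in all 4 lists, outside any annotated gene. Apold1, an endothelial gene 56487 bp downstream, had H3K27me3 in both progenitor lists (3292 and 4001 bp) and 0 bp in both E13.5 lists, and Gpr19, an orphan receptor, had H3K4me3 alone.

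**Figure D4:**
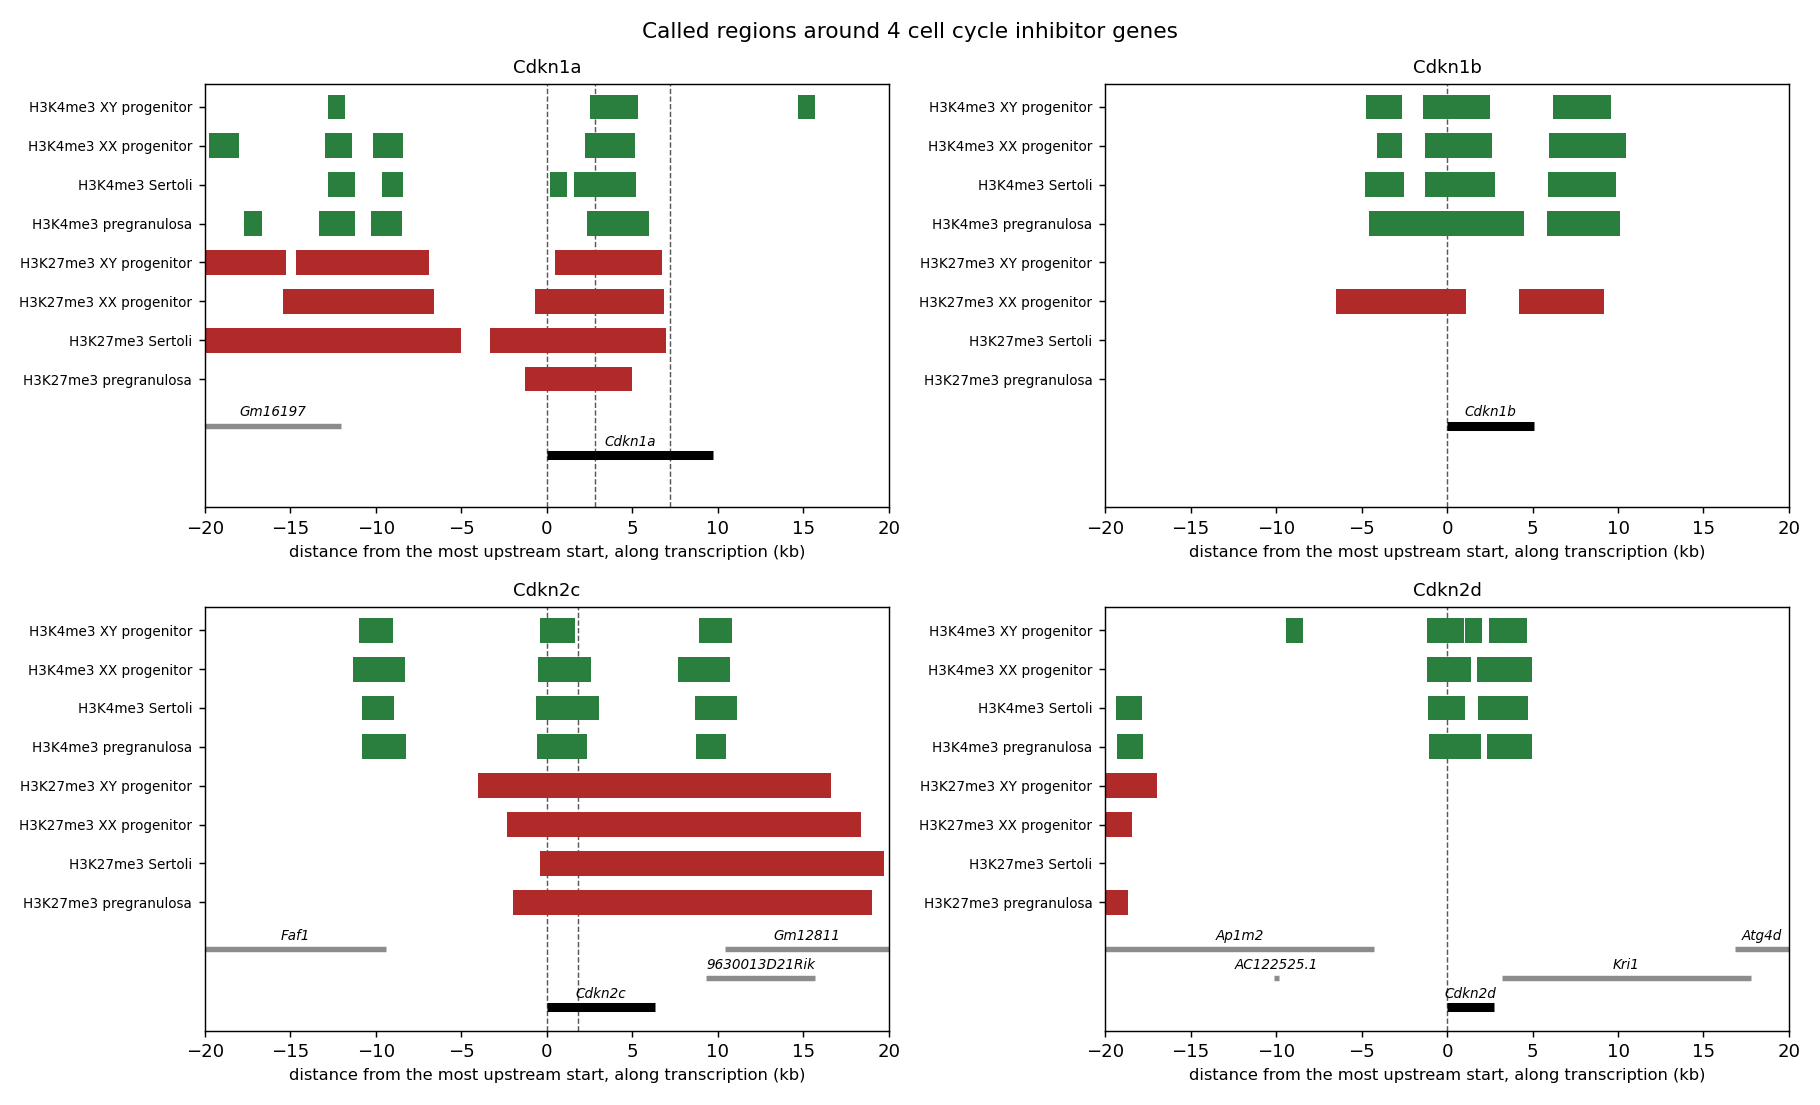
Called regions of H3K4me3 (green) and H3K27me3 (red) in the 4 populations within 20 kb of the most upstream start of Cdkn1a, Cdkn1b, Cdkn2c and Cdkn2d, by distance in kb along the direction of transcription (x axis). Black bars are the named genes, grey bars other annotated genes, and dashed lines annotated starts of the named gene. H3K27me3 appears at Cdkn1b in XX progenitor cells only, and the H3K4me3 region there is 9055 bp wide in pregranulosa cells.

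From E10.5 to E13.5 the presence of H3K27me3 changed at 0 of the 11 starts in the XY pair and at 2 in the XX pair. In the XY pair (XY progenitor to Sertoli) it was present at the same 9 starts in both lists, where 5.69% of all starts gained it and 4.78% lost it. In the XX pair (XX progenitor to pregranulosa) it was absent at E13.5 from 2 starts that had it at E10.5, Cdkn1b and Cdkn1a-002. Of all starts 3.87% lost it and 3.1% gained it in this pair. These percentages are of all starts, most of which had no H3K27me3 at E10.5. Of the 13112 starts marked in XY progenitor cells, 3210 were not marked in Sertoli cells, beside 0 of the 9 member starts. Of the 12816 marked in XX progenitor cells, 2600 were not marked in pregranulosa cells, beside 2 of the 10 member starts. H3K4me3 was present at 10 starts in each XY list, with Cdkn1a-003 gained and Cdkn1a-002 lost, where XY progenitor cells had 137 bp. Of all starts 3.69% gained it and 2.21% lost it in this pair. In the XX pair it was present at 8 and then 9 starts, with Cdkn1a-002 gained, and 2.3% of all starts gained it and 1.94% lost it.

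Other genes of the cell cycle were given by their most upstream start, near which 23.6%, 22.8%, 24.2% and 22.1% of 21418 autosomal protein-coding genes had H3K27me3 in XY progenitor, XX progenitor, Sertoli and pregranulosa cells. H3K4me3 was near 64.8%, 66.7%, 65.5% and 67% of these genes. Of 12 other inhibitors all had H3K4me3 in every list, and 5, 5, 3 and 3 had H3K27me3. Cdkn1c, the third CIP/KIP gene (p57) and an imprinted one, had 3094 and 3870 bp of H3K27me3 in the XY and XX progenitor lists, 4001 bp in Sertoli cells and 0 bp in pregranulosa cells. Trp73, a p53 relative, had 4001 bp in all 4 lists, and Gadd45b, a stress-response gene, 3129 to 4001 bp. Btg2, an antiproliferative factor, had 3375 and 4001 bp in the progenitor lists and 0 bp in both E13.5 lists. Gadd45g, which acts in male sex determination, had 4001 bp in both progenitor lists, 0 bp in Sertoli cells and 627 bp in pregranulosa cells. The pocket protein genes Rb1, Rbl1 and Rbl2, and Trp53, Btg1, Gadd45a and Wee1, had H3K4me3 alone.

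The genes that the inhibitors act on were near the background in H3K27me3. Of 12 cyclin, kinase and E2F genes all had H3K4me3, and 4, 4, 3 and 3 had H3K27me3, shares of 33.3%, 33.3%, 25% and 25% that were close to the background. Those marked were Ccnd1, Ccnd2, Cdk4 and Cdk6, while the third D cyclin gene, Ccnd3, had 0 bp in all 4 lists. Ccne1, Ccne2, Ccna2, Cdk2, E2f1, E2f2 and E2f3 also had 0 bp in all 4. Every marked gene thus encoded a D cyclin or the CDK4 or CDK6 kinase. Ccnd1, which encodes cyclin D1, had 4001 bp of both marks in all 4 lists. Ccnd2 had 4001 bp of H3K27me3 in both progenitor lists, 690 bp in Sertoli and 453 bp in pregranulosa cells. Cdk4 had 2692, 2459, 806 and 0 bp of H3K27me3 in XY progenitor, XX progenitor, Sertoli and pregranulosa cells, and Cdk6 3792, 3923, 0 and 3078 bp. The 3 genes of the ARF-p53 arm, Mdm2, Mdm4 and Trp53, had H3K27me3 in 0 of 4 lists.

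For each member with H3K27me3 at its most upstream start, the 3 genes with the most similar pattern were those with the smallest summed difference in covered bases over the 8 lists, among 21418 genes and with no test. For Cdkn2b they were Slc16a12, Gramd1b and Acot5, with summed differences of 158, 315 and 394 bp. For the ARF start of Cdkn2a they were Ostm1, Rnf39 and Nr2e1 (316, 396 and 473 bp). For Cdkn2c they were Acss2, Aqp11 and Afap1l2 (945, 1215 and 1361 bp), for Cdkn1b Angptl4, Eif2b5 and Atp13a3 (942, 1047 and 1129 bp), and for Cdkn1a Uts2r, Gsdma and Myh7b (2327, 2331 and 2376 bp). Cdkn2b thus had near-duplicates of its pattern and Cdkn1a, at the Cdkn1a-003 start used here, had none so close. Angptl4, Eif2b5 and Atp13a3 shared with Cdkn1b H3K27me3 in XX progenitor cells only, at 2862, 2958 and 3152 bp.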

How the data were processed

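H3, H3K4me3 and H3K27me3 were each profiled in 2 replicates of 4 populations (24 samples), and 8 deposited peak lists, 1 for each mark of H3K4me3 and H3K27me3 in each population, were analysed. According to the submitters' processing notes and the methods, the authors trimmed reads with Trim Galore, aligned them with Bowtie (mm9) and ran HOMER in histone style with H3 as input. Native chromatin was cut with MNase, 30K-100K sorted cells were used per replicate, and Drosophila S2 chromatin was added as a carrier. Per the file headers, the peak size was 1000 bp for H3K4me3 and 5000 bp for H3K27me3, at 4 times the input or more and a Poisson p-value of 1.00e-04. The 2 pregranulosa lists have no header. The deposited score is 1 for every peak of the 6 other lists and was not used.

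Peaks that overlap were joined into regions, since 3 of the H3K27me3 lists hold overlapping windows of 5001 bp. Windows of 2 kb on each side of every start in the GENCODE M1 annotation (NCBIM37, the same build) were intersected with the regions at 1 bp or more. All 360276 peaks lay within the chromosome ends of that sequence. The background was every start of autosomal protein-coding genes, since all members are autosomal. Populations were compared by their values, with no test, because each list pools its replicates. Joining and coverage were tested on simulated data. The members and gene lists were chosen with earlier results of these data known. By rule, genes named were the members, their nearest coding neighbour on each side, the listed cell cycle genes that hold H3K27me3 in any list, and the 3 genes most like each member. Noncoding transcripts, Sftpc, the listed cell cycle genes without H3K27me3 and single cell type markers were named outside this rule, after their values were seen. Alternatives changed the overlap, the window, the joining distance, the starts counted and the regions kept. Python 3.11.15, NumPy 2.4.6, matplotlib 3.10.9 and bedtools 2.31.1 were used.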

Additional observations from a re-analysis of the deposited data

Results flagged for a closer look

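At 4 starts the covered bases moved by at least 200 bp in opposite directions from E10.5 to E13.5 in the XY and the XX pair, which is what flagged them. These differences were not tested, because each pair compares 2 pooled lists. The share of all starts that meet the same rule was not computed, so the count has no background beside it. The ARF starts among them lie 34 bases apart in the same H3K4me3 region and are not separate cases. At the ARF starts Cdkn2a-002 and Cdkn2a-201, H3K4me3 rose by 453 bp from XY progenitor to Sertoli cells and fell by 920 bp from XX progenitor to pregranulosa cells. At Cdkn2d-201, H3K4me3 fell by 721 bp in the XY pair, from 3096 to 2375 bp, and rose by 226 bp in the XX pair, from 2830 to 3056 bp. The region over the start itself did not move in opposite directions. It was 2124 and then 2167 bp wide in the XY pair, and 2555 and then 3056 bp in the XX pair. The other bases came from separate regions, in XY progenitor cells a window of 1001 bp, and in XX progenitor and Sertoli cells the region over the Kri1 start. At Cdkn1a-002, H3K27me3 rose by 280 bp in the XY pair and fell by 1611 bp, to 0 bp, in the XX pair.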

How the results depend on the processing

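The counts of marked starts stayed within 1.5 times their value under every alternative except the use of 1 start per gene, which counts 6 starts in place of 11. There, in the order XY progenitor, XX progenitor, Sertoli and pregranulosa, H3K4me3 marked 5, 5, 6 and 5 starts, H3K27me3 4, 5, 4 and 4, and both marks 3, 4, 4 and 3. H3K27me3 over the Cdkn2a-Cdkn2b locus stayed within 1.5 times its value under all alternatives run. H3K4me3 over the locus was 2606 bp in XY progenitor and 3224 bp in Sertoli cells with the widest 75% of regions kept, where regions tied at the limiting width were also left out. The same 2606 and 3224 bp came from leaving out regions no wider than 1 listed window, an alternative chosen after seeing the data, and 3224 bp in Sertoli cells came from keeping at most as many regions as the shortest list of the mark, where ties at the limiting width, again left out, brought the Sertoli H3K4me3 list to 26691 regions and the shortest stayed at 37847. Merging regions within 5 kb gave 12633 bp in Sertoli cells. Under the 3 alternatives that removed narrow regions, H3K4me3 at the p16 start was lost in Sertoli cells, and under 2 of them in XY progenitor cells. No paired analysis was possible because each list pools both replicates, and for the same reason no replicate could be left out. Depth could not be equalized, since the lists hold no tags.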
